A study of Mus musculus with 12 samples.

Results

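ER-associated degradation (ERAD) removes misfolded proteins from the endoplasmic reticulum (ER), and the 33 mouse genes described here encode its membrane and cytosolic factors. They were chosen by name, from a list of known ERAD factors, with earlier results of these data known. All 33 were found among the 55416 gene identifiers of the 12 libraries. All 33 also passed the filter on low counts, which kept 16221 genes. By the topology known for their proteins, 25 members are ER luminal or membrane factors and 8 are cytosolic (Vcp, Nploc4, Faf1, Ubqln1, Ubqln2, Ubqln4, Ngly1 and Ube2g2). Hm13 is listed in the annotation under its other symbol, H13.

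The libraries came from E14Tg2a.4 mouse embryonic stem cells whose Rpl31, a protein of the large ribosomal subunit, was extended by FLAG, a TEV cleavage site and AviTag, the acceptor peptide of a biotin ligase. The cells were transfected with plasmids encoding ALIBi, a proximity biotinylation system split into an N-terminal and a C-terminal fragment, which was targeted either to the cytosol or to the ER, and biotinylated ribosomes were affinity purified together with their mRNAs. Poly(A) RNA was sequenced from the purified ribosomes (ribosome-bound) and from an aliquot of the same lysates taken beforehand (whole-cell), which gave 4 groups of 3 biological replicates: ER ribosome-bound, cytosol ribosome-bound, ER whole-cell and cytosol whole-cell. The tagged Rpl31 and the transfected ALIBi fragments are common to all 4 groups, so no group lacks them, and the siRNA that the study used on some cells is not a label of these libraries. All cells were of a single line that received ALIBi on plasmids, and replicates are labelled as biological with no word on whether cultures were separate. The p-values thus set differences between groups against the spread among these libraries, which may be technical in part.

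In ERAD, lectins and mannosidases in the ER lumen pick out misfolded glycoproteins, a membrane channel built around a ubiquitin ligase passes them to the cytosol, and ubiquitin-conjugating enzymes and ligases tag them on the way. The cytosolic ATPase Vcp then pulls the tagged proteins out of the membrane and hands them to shuttle factors and the proteasome. Membrane and luminal proteins are themselves usually made by ribosomes docked on the ER, which a signal peptide or the first transmembrane segment of the growing chain brings there. Tail-anchored proteins, whose only membrane segment lies at the C terminus, are released from the ribosome before that segment can be recognized, and cytosolic proteins need no such step.

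Library depth was 21.1 to 26.9 M counts in genes. All 8 pluripotent stem cell markers (Pou5f1, Nanog, Sox2, Esrrb, Klf4, Zfp42, Dppa5a and Tdgf1) were detected in each group, with a summed level of 8051 to 12482 CPM per library (counts scaled to a common library total). Endoderm markers summed to 7.5 to 17.1 CPM, with 1 of the 5 at 0 in ER whole-cell RNA, and neural markers to 15.2 to 19.6 CPM. The 5 feeder fibroblast markers, which encode collagens and surface proteins and all had counts in each group, summed to 82.6 to 87.0 CPM in the ER ribosome-bound libraries and to 33.9 to 36.8 CPM in the other 9; their part in the results was not tested. The 6 mitochondrially encoded mRNAs of the marker list, which cytosolic ribosomes do not translate, summed to 273 to 359 CPM in the ribosome-bound libraries and to 14413 to 15063 CPM in whole-cell RNA. In bulk RNA of this kind, fewer cells of a type and less RNA per cell cannot be told apart.

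The stretches of coding sequence printed here show where the hydrophobic segment of a member's protein lies, since the members differ in that feature. A segment was a run in which the mean Kyte-Doolittle hydropathy over 19 residues was at least 1.6, with an 11-residue window of at least 2.0 also accepted when it starts within the first 40 residues, as signal peptides are short. Sequences are coding DNA of the principal GENCODE M21 transcript, 5′ to 3′, with the codons of the segment in capitals and up to 10 flanking codons in lower case. Sel1l and Edem2 are shown as the members of the channel core and of glycan recognition with the highest ER over cytosol ratio, with the segment in codons 1 to 25 of 790 and 1 to 23 of 577. Aup1 is shown for an internal segment, codons 47 to 90 of 439.
Sel1l: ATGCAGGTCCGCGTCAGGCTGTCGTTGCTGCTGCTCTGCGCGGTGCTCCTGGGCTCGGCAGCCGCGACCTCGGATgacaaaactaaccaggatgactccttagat
Edem2: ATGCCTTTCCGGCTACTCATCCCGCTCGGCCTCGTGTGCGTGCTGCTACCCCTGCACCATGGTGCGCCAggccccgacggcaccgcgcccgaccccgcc
Aup1: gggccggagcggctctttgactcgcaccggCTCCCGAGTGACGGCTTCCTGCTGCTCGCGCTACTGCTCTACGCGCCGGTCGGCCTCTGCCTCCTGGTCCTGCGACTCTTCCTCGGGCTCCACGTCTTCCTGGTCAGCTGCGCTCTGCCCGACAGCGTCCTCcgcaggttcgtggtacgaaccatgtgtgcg
The next 4 are the members in which the only segment to reach the threshold lies at the C terminus. It covers codons 160 to 180 of 180 in Rnf5, 169 to 192 of 192 in Rnf185, 283 to 310 of 318 in Ube2j1 and 226 to 254 of 259 in Ube2j2. No codon or at most 8 codons therefore follow the segment. Of these members, Ube2j1 and Ube2j2 are known as tail-anchored. Rnf5 and Rnf185 are known to have membrane segments near the C terminus and were not classed as tail-anchored.
Rnf5: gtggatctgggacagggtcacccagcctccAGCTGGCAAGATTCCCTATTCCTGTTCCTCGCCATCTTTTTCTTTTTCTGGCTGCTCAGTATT
Rnf185: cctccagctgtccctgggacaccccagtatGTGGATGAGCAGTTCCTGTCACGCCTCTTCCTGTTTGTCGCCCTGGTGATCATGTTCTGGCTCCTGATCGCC
Ube2j1: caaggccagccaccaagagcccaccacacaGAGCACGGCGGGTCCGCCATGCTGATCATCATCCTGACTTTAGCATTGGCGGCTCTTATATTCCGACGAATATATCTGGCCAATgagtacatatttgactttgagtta
Ube2j2: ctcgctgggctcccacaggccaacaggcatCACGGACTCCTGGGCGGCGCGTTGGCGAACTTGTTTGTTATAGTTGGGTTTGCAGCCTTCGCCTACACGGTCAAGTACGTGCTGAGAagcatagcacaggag
Herpud1 and Ubxn4 are shown for stretches that fell just short of the 19-residue threshold, and the capitals mark these stretches. The segment that the 11-residue window accepted in Ubxn4, codons 18 to 28, is not printed. In Herpud1 the most hydrophobic 19 codons were 276 to 294 of 391 with a mean of 1.58, and in Ubxn4 they were 409 to 427 of 506 with a mean of 1.59.
Herpud1: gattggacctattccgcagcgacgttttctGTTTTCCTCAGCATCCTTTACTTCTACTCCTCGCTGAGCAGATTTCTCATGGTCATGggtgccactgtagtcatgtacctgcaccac
Ubxn4: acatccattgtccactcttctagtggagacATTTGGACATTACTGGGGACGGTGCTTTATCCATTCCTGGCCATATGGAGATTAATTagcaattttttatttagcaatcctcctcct

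The mRNAs of most luminal and membrane ERAD factors were several times more abundant on ER-targeted than on cytosol-targeted ribosomes, while those of the cytosolic factors were at the same level or slightly lower. Of the 25 luminal or membrane members, 21 were higher in ER ribosome-bound than in cytosol ribosome-bound RNA, 3 were lower and 1 passed in neither direction, at an adjusted p of 0.05 (quasi-likelihood test of edgeR, Benjamini-Hochberg). Among all tested genes 29.0% were higher and 24.5% lower. Their median log2 ratio was 1.71, against 0.00 over all tested genes, and 18 of the 25 exceeded 2-fold. Of the 8 cytosolic members none was higher (also 0 at an unadjusted p under 0.05 and 0 by DESeq2), 7 were lower and 1, Faf1, passed in neither direction, with a median of -0.23. The CPM of the 3 ER and the 3 cytosol ribosome-bound libraries did not overlap for 21 higher and 3 lower luminal or membrane members and for 7 lower cytosolic members, where 31.0% of all tested genes stood wholly higher and 27.3% wholly lower. Rnf5 and Faf1 were the 2 members whose libraries overlapped.

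**Figure D1:**
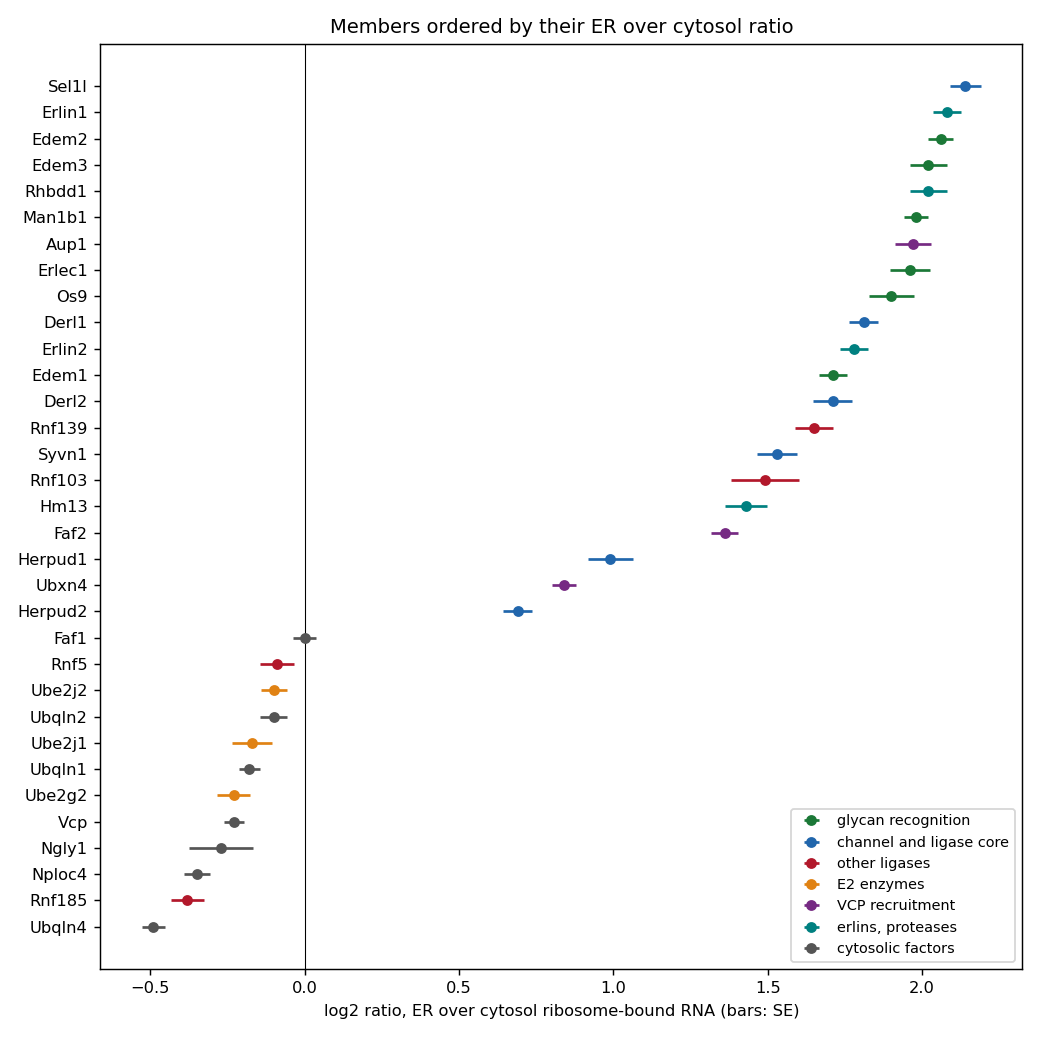
Log2 ratio of ER over cytosol ribosome-bound RNA for each of the 33 members, ordered from highest to lowest, with the SE as a bar and the role as colour (Ube2g2, a cytosolic member, is drawn with the E2 enzymes). The upper 21 members lie between 0.69 and 2.14 and the lower 12 between -0.49 and 0.

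The size of the decreases depended on how libraries were scaled. The values given are scaled with TMM factors, which assume that most genes do not change. When libraries were instead scaled by 35 cytosolic housekeeping genes, the median of all genes moved from 0.00 to 0.13, and the split over all tested genes changed from 4701 higher and 3981 lower to 6077 higher and 1714 lower. The 21 luminal or membrane members were higher under both, and the median of all 25 was 1.84. Of the cytosolic members 3 (Vcp, Nploc4 and Ubqln4) were lower and Faf1 was higher under that scaling, and of the luminal or membrane members Rnf185 alone was lower. No member was lower when the test asked for more than a 1.5-fold change (glmTreat), whereas all 21 stayed higher. Decreases below are therefore given relative to the TMM scaling.

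**Figure D2:**
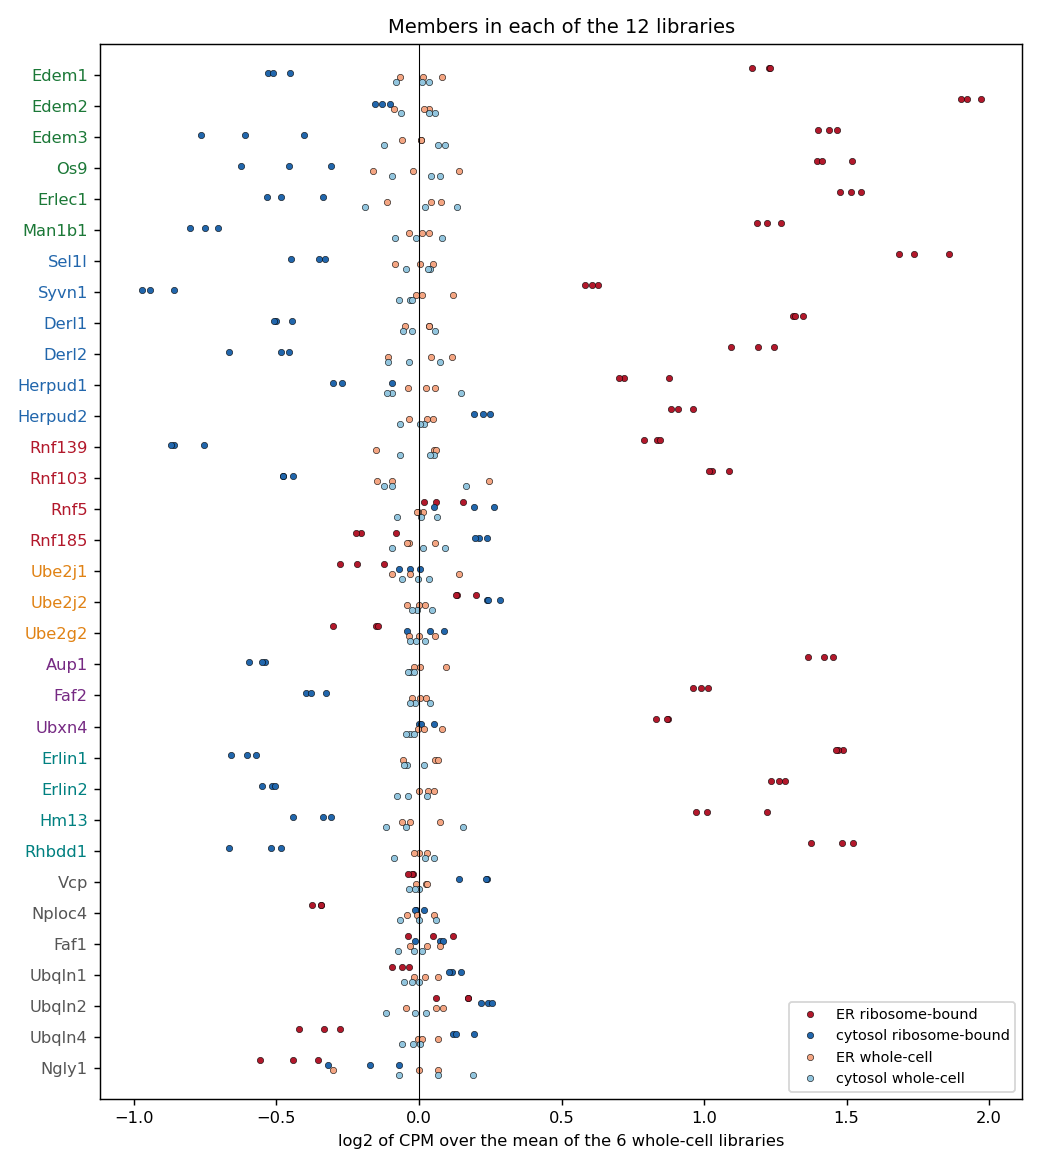
Level of each member in each of the 12 libraries, as the log2 of its CPM over the mean of the 6 whole-cell libraries; points are libraries, coloured by group, and gene names are coloured by role. Red ER ribosome-bound points stand clear to the right for 21 members, while the whole-cell points of both targetings lie around 0 for all 33.

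The luminal glycan readers were higher on ER-targeted ribosomes without exception: 6 of 6 passed, with log2 ratios of 1.71 to 2.06 and a median of 1.97. Edem1, Edem2 and Edem3 are mannosidase-like proteins that mark misfolded glycoproteins, Man1b1 is a mannosidase that trims their glycans, and Os9 and Erlec1 are lectins that read the trimmed glycan. Edem2, whose N-terminal segment is printed above, stood at 212, 205 and 202 CPM in the ER ribosome-bound libraries, 49.4, 50.4 and 48.6 CPM in the cytosol ribosome-bound libraries, 55.4, 50.9 and 54.8 CPM in ER whole-cell RNA and 55.5, 51.8 and 56.2 CPM in cytosol whole-cell RNA, with replicates 1, 2 and 3 in that order here and below. All 3 ER ribosome-bound libraries were above every other library, and the log2 ratio was 2.06 (SE 0.041, edgeR adjusted p = 4.2e-43), a 4.17-fold difference. Edem1, the lowest of the group, stood at 127, 127 and 122 CPM in the ER ribosome-bound libraries, 37.5, 37.9 and 39.5 CPM in the cytosol ribosome-bound libraries, 57.2, 51.7 and 54.6 CPM in ER whole-cell RNA and 51.1, 54.5 and 55.4 CPM in cytosol whole-cell RNA. Here the ER ribosome-bound libraries were the highest and the cytosol ribosome-bound libraries the lowest of the 12, with a log2 ratio of 1.71 (SE 0.045, edgeR adjusted p = 1.4e-37), or 3.27-fold. Between them lay Edem3 at 2.02, Man1b1 at 1.98, Erlec1 at 1.96 and Os9 at 1.9. Man1b1 shares exon sequence with a gene on the opposite strand (AA543186) in the annotation, so its count is uncertain.

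Members of the channel core were all higher, by different amounts. It comprises the ligase Syvn1, its adaptor Sel1l, the rhomboid-like channel subunits Derl1 and Derl2, and Herpud1 and Herpud2, membrane proteins with a ubiquitin-like domain, of which Herpud1 is known to bind the ligase complex. All 6 were higher in ER than in cytosol ribosome-bound RNA, with log2 ratios of 0.69 to 2.14 and 4 of them over 2-fold. Sel1l had the highest ratio of all members and stood at 141, 129.5 and 125 CPM in the ER ribosome-bound libraries, 30.9, 28.5 and 30.5 CPM in the cytosol ribosome-bound libraries, 36.7, 39.0 and 40.2 CPM in ER whole-cell RNA and 37.7, 39.9 and 39.7 CPM in cytosol whole-cell RNA. No other library reached its ER ribosome-bound values, with a log2 ratio of 2.14 (SE 0.049, edgeR adjusted p = 2e-40), or 4.40-fold. Herpud2 had the lowest ratio of the group and stood at 69.9, 67.4 and 66.3 CPM in the ER ribosome-bound libraries, 42.7, 42.0 and 41.1 CPM in the cytosol ribosome-bound libraries, 35.1, 36.6 and 37.2 CPM in ER whole-cell RNA and 34.3, 36.4 and 36.0 CPM in cytosol whole-cell RNA. Its cytosol ribosome-bound libraries lay above all whole-cell libraries and below all ER ribosome-bound ones, and the log2 ratio was 0.69 (SE 0.047, edgeR adjusted p = 3.4e-19), or 1.62-fold. Herpud1 was the next lowest, at 0.99 (SE 0.073, edgeR adjusted p = 1.3e-17). The protein identity of the pair was 40.7%. Derl1 and Derl2, which are 33.2% identical, were at 1.81 and 1.71, and Syvn1 was at 1.53. Syvn1 and Derl2 overlap exons on the opposite strand (of Mrpl49 and Mis12).

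The other ubiquitin ligases of the ER membrane split into a pair that was higher on ER-targeted ribosomes and a pair that was not. Rnf139, a multi-pass ligase also known for its part in sterol control, stood at 46.9, 45.4 and 47.2 CPM in the ER ribosome-bound libraries, 15.6, 14.5 and 14.4 CPM in the cytosol ribosome-bound libraries, 23.7, 27.3 and 27.4 CPM in ER whole-cell RNA and 27.3, 27 and 25.1 CPM in cytosol whole-cell RNA. The ER ribosome-bound libraries were the highest and the cytosol ribosome-bound libraries the lowest, with a log2 ratio of 1.65 (SE 0.062, edgeR adjusted p = 2.3e-30), or 3.13-fold. Rnf103, with few reads (110 to 304 counts per library), reached 1.49 (SE 0.11, edgeR adjusted p = 1e-17). Rnf185 stood at 32.1, 34.9 and 31.7 CPM in the ER ribosome-bound libraries, 42.8, 42.3 and 43.6 CPM in the cytosol ribosome-bound libraries, 36.1, 38.4 and 35.9 CPM in ER whole-cell RNA and 39.4, 34.6 and 37.3 CPM in cytosol whole-cell RNA. Its cytosol ribosome-bound libraries were the highest of the 12 and the ER ribosome-bound libraries lay below them without overlap, so that the log2 ratio was -0.38 (SE 0.054, edgeR adjusted p = 2e-08), or 1.30-fold lower. Rnf5, a related ligase with 58.5% protein identity, stood at 32.6, 33.5 and 35.8 CPM in the ER ribosome-bound libraries, 33.4, 38.6 and 36.8 CPM in the cytosol ribosome-bound libraries, 32.5, 32.1 and 32.0 CPM in ER whole-cell RNA and 32.3, 30.5 and 33.6 CPM in cytosol whole-cell RNA. The groups overlapped and the log2 ratio was -0.09 (SE 0.056, edgeR adjusted p = 0.16). Its difference was close to the threshold: the value was -0.15 to -0.19 and was called lower when the library left out was replicate 1 of cytosol ribosome-bound RNA, replicate 2 or 3 of either ER group or any 1 of the cytosol whole-cell replicates. It was also called lower with RLE factors (-0.14, edgeR adjusted p = 0.034). Whole-cell libraries are not part of this comparison. Leaving out any 1 cytosol whole-cell replicate still moved the median of all genes from 0.00 to -0.06, so part of such a change in Rnf5 is shared by all genes. Rnf5 and Rnf139 overlap annotated exons of other genes (Gm20463 for Rnf5, Tatdn1 and Gm49356 for Rnf139).

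None of the 3 ubiquitin-conjugating enzymes (E2 enzymes) was higher on ER-targeted ribosomes. Ube2j1 and Ube2j2 are tail-anchored in the ER membrane, and Ube2g2 is a soluble E2 enzyme that membrane partners recruit to it. Ube2j1 stood at 23.9, 22.4 and 21.5 CPM in the ER ribosome-bound libraries, 26.1, 25.5 and 24.8 CPM in the cytosol ribosome-bound libraries, 25.5, 28.7 and 24.4 CPM in ER whole-cell RNA and 26.0, 26.7 and 25 CPM in cytosol whole-cell RNA. The ER ribosome-bound libraries were the lowest, close under the others, with a log2 ratio of -0.17 (SE 0.064, edgeR adjusted p = 0.019). Ube2j2 stood at 72.6, 75.9 and 72.3 CPM in the ER ribosome-bound libraries, 78.1, 80.5 and 78.2 CPM in the cytosol ribosome-bound libraries, 64.3, 67.1 and 66.2 CPM in ER whole-cell RNA and 68.3, 65.9 and 65.1 CPM in cytosol whole-cell RNA. Both ribosome-bound groups lay above both whole-cell groups, the ER group slightly below the cytosol group, with a log2 ratio of -0.10 (SE 0.042, edgeR adjusted p = 0.037). Ube2g2 stood at 32.4, 35.9 and 36.1 CPM in the ER ribosome-bound libraries, 38.8, 41.0 and 42.4 CPM in the cytosol ribosome-bound libraries, 39.9, 38.9 and 41.5 CPM in ER whole-cell RNA and 39.0, 39.6 and 40.5 CPM in cytosol whole-cell RNA. Its ER ribosome-bound libraries were the lowest of the 12, and the log2 ratio was -0.23 (SE 0.053, edgeR adjusted p = 0.00027). These were differences of 1.13-fold, 1.07-fold and 1.17-fold. Under the cytosolic scaling none of the 3 was called, with values of -0.04, 0.03 and -0.10. The calls also rested on single libraries: Ube2j1 was at -0.16 (edgeR adjusted p = 0.06) without cytosol ribosome-bound replicate 1, and Ube2j2 at -0.11 (0.055) without cytosol ribosome-bound replicate 3. Ube2j1 and Ube2j2 are 27.2% identical, and Ube2g2 overlaps same-strand exons of Gm49325 and Mir1930.

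The membrane proteins that recruit Vcp or E2 enzymes were all higher in ER ribosome-bound RNA (3 of 3). Aup1, a hairpin protein of the ER and of lipid droplets that recruits Ube2g2, stood at 51.3, 53.3 and 54.5 CPM in the ER ribosome-bound libraries, 13.7, 13.6 and 13.2 CPM in the cytosol ribosome-bound libraries, 20.0, 21.3 and 19.7 CPM in ER whole-cell RNA and 19.5, 19.7 and 19.4 CPM in cytosol whole-cell RNA. The ER ribosome-bound libraries were the highest and the cytosol ribosome-bound libraries the lowest, with a log2 ratio of 1.97 (SE 0.059, edgeR adjusted p = 6.4e-35), or 3.93-fold. Aup1 overlaps Htra2 on the opposite strand. Faf2, a hairpin protein whose UBX domain binds Vcp, had a log2 ratio of 1.36 (SE 0.043, edgeR adjusted p = 5.4e-34). Its soluble relative Faf1, with 20.5% protein identity, was at 0.00. Ubxn4, a further UBX protein held in the ER membrane, stood at 136, 135 and 132 CPM in the ER ribosome-bound libraries, 74.1, 76.8 and 74.5 CPM in the cytosol ribosome-bound libraries, 74.9, 78.3 and 73.8 CPM in ER whole-cell RNA and 72.4, 71.7 and 73.2 CPM in cytosol whole-cell RNA. Above all others were the ER ribosome-bound libraries, and the remaining 9 lay within 71.7 to 78.3 CPM. The log2 ratio was 0.84 (SE 0.039, edgeR adjusted p = 2.6e-26), or 1.79-fold, below those of Aup1 and Faf2.

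The erlins and the intramembrane proteases were higher in 4 of 4 cases, with log2 ratios of 1.43 to 2.08. Erlin1 and Erlin2 form a membrane complex that takes part in the degradation of inositol trisphosphate receptors; Hm13 is signal peptide peptidase and Rhbdd1 a rhomboid protease, and both cut within the membrane. Erlin1 stood at 132, 131 and 130.3 CPM in the ER ribosome-bound libraries, 31.1, 29.9 and 31.8 CPM in the cytosol ribosome-bound libraries, 49.2, 49.5 and 45.5 CPM in ER whole-cell RNA and 47.9, 45.9 and 45.6 CPM in cytosol whole-cell RNA. The 3 ER ribosome-bound libraries lay within 130.3 to 132.4 CPM, far above the others, with a log2 ratio of 2.08 (SE 0.045, edgeR adjusted p = 1.6e-41), or 4.24-fold. Erlin2, 73.4% identical to it, reached 1.78 (SE 0.045, edgeR adjusted p = 1.9e-38). Hm13 stood at 43.2, 42.1 and 50.0 CPM in the ER ribosome-bound libraries, 17.3, 17.0 and 15.8 CPM in the cytosol ribosome-bound libraries, 20.6, 21 and 22.6 CPM in ER whole-cell RNA and 23.9, 19.8 and 20.8 CPM in cytosol whole-cell RNA. Again the ER ribosome-bound libraries were the highest, with more spread than for Erlin1, and the log2 ratio was 1.43 (SE 0.068, edgeR adjusted p = 3.7e-24), or 2.7-fold. Rhbdd1 reached 2.02. The count of Hm13 is uncertain because Gm26841 overlaps it on the opposite strand.

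The cytosolic factors moved little. Vcp, the ATPase that extracts ubiquitinated proteins, was the most abundant member and stood at 499.7, 498 and 493 CPM in the ER ribosome-bound libraries, 559, 597 and 597 CPM in the cytosol ribosome-bound libraries, 516, 503 and 517 CPM in ER whole-cell RNA and 495, 506 and 502 CPM in cytosol whole-cell RNA. The cytosol ribosome-bound libraries were the highest and the other 3 groups were close together, so the log2 ratio was -0.23 (SE 0.033, edgeR adjusted p = 2.1e-08), or 1.18-fold lower. Nploc4, a cofactor of Vcp, was at -0.35 (SE 0.042, edgeR adjusted p = 1.4e-10). Ubqln4, a ubiquilin that shuttles clients to the proteasome, had the lowest ratio of all members and stood at 227, 236 and 214 CPM in the ER ribosome-bound libraries, 327, 311 and 313 CPM in the cytosol ribosome-bound libraries, 285, 299 and 288 CPM in ER whole-cell RNA and 282, 286 and 274 CPM in cytosol whole-cell RNA. The ER ribosome-bound libraries were below every other library and the cytosol ribosome-bound libraries above, with a log2 ratio of -0.49 (SE 0.036, edgeR adjusted p = 6.7e-18), or 1.41-fold lower.

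The other ubiquilins showed smaller differences in the same direction. Ubqln1, 57.3% identical to Ubqln4, was at -0.18 (SE 0.034, edgeR adjusted p = 4.8e-06). Ubqln2 stood at 74.8, 74.8 and 69.1 CPM in the ER ribosome-bound libraries, 78.5, 79.2 and 77.2 CPM in the cytosol ribosome-bound libraries, 64.3, 69.1 and 70.3 CPM in ER whole-cell RNA and 65.6, 67.4 and 61.2 CPM in cytosol whole-cell RNA. Its cytosol ribosome-bound libraries were the highest of the 12, and the ER ribosome-bound ones overlapped the whole-cell range. The log2 ratio was -0.10 (SE 0.044, edgeR adjusted p = 0.049); it was 0.03 under the cytosolic scaling and was not called without cytosol ribosome-bound replicate 1 (-0.10, edgeR adjusted p = 0.082) or replicate 3 (-0.11, 0.059). Faf1, a UBX adaptor of Vcp, stood at 209, 219 and 196 CPM in the ER ribosome-bound libraries, 212, 199.8 and 214 CPM in the cytosol ribosome-bound libraries, 206, 212 and 197 CPM in ER whole-cell RNA and 199, 192 and 203 CPM in cytosol whole-cell RNA. All 4 groups overlapped, and the log2 ratio was 0.00 (SE 0.038, edgeR adjusted p = 0.96); it was -0.10 and called lower without replicate 2 of either ribosome-bound group (edgeR adjusted p = 0.042 without the cytosol and 0.033 without the ER library), and 0.13 and called higher (0.0027) under the cytosolic scaling. Ngly1, the enzyme that strips N-glycans from extracted proteins, stood at 8.3, 7.8 and 7.2 CPM in the ER ribosome-bound libraries, 9.4, 8.5 and 10.1 CPM in the cytosol ribosome-bound libraries, 8.6, 11.1 and 10.6 CPM in ER whole-cell RNA and 10.1, 11.1 and 12.1 CPM in cytosol whole-cell RNA. Its ER ribosome-bound libraries were the lowest of the 12, just under the cytosol ribosome-bound ones, with a log2 ratio of -0.27 (SE 0.104, edgeR adjusted p = 0.026) that was not called without cytosol ribosome-bound replicate 3 (-0.20, edgeR adjusted p = 0.15). Vcp and Ngly1 overlap exons on the opposite strand (1700022I11Rik and Oxsm).

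Other membrane or luminal genes of the pathway were all higher on ER-targeted ribosomes, while other cytosolic genes were mixed, with more lower than higher. Among all tested genes 29.0% were higher and 24.5% lower in ER over cytosol ribosome-bound RNA. Of 32 further membrane or luminal ERAD genes, all 32 were higher in ER ribosome-bound RNA and none was lower (0 also at an unadjusted p under 0.05 and by DESeq2), with a median log2 ratio of 1.68 and 28 over 2-fold. The highest were the chaperone Hspa5 at 2.28 (SE 0.037), its reductase co-chaperone Dnajc10 at 2.23 (SE 0.039) and the membrane cargo receptor Bcap31 at 2.22 (SE 0.038). The lowest were the ligase Trim13 at 0.65 (SE 0.046) and the membrane J proteins Dnajc18 at 0.68 (SE 0.068) and Dnajb14 at 0.82 (SE 0.089). Of 24 further cytosolic genes, 2 were higher, 12 were lower and 10 passed in neither direction, with a median of -0.11. The lowest were the Vcp cofactor Nsfl1c at -0.55 (SE 0.041), the glycan-binding F-box protein Fbxo2 at -0.51 (SE 0.060) and the Vcp cofactor Plaa at -0.40 (SE 0.037). The 2 higher genes were the ubiquitin ligase Ube4a at 0.91 (SE 0.075), which overlaps Gm19121 on the opposite strand, and Get4, a factor of tail-anchored protein delivery, at 0.22 (SE 0.041). Hspa5 also belongs to the unfolded protein response genes described further on.

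The place of the first hydrophobic segment did not enter the choice of members. Under the thresholds above, it separated the luminal or membrane members that were higher from those that were not. The 4 of the 25 that were not higher (Rnf5, Rnf185, Ube2j1 and Ube2j2) were also the 4 with a C-terminal segment, and their log2 ratios were -0.09, -0.38, -0.17 and -0.10. The remaining 21 of 21 were higher, with a median of 1.78. This division was made after the values were seen and is a description. A coarser label from known topology, membrane segments near the C terminus, did not separate them in this way. Herpud1, Herpud2, Rnf5 and Rnf185 shared that label, and Herpud1 and Herpud2 were higher (0.99 and 0.69). By position the 4 were not alike. The segment of Herpud2 covered residues 286 to 305 of 404, with 99 residues after it. The most hydrophobic window of Herpud1 covered residues 276 to 294 of 391. In Rnf5 and Rnf185, 0 residues followed the segment. The class was N-terminal for 15 members, internal for Man1b1, Derl2, Herpud2 and Aup1, and none for Herpud1 and Faf2, whose membrane parts fell short of the threshold. No cytosolic member had a segment. Over all tested genes with a protein in the annotation, the 3073 with an N-terminal segment had a median log2 ratio of 1.46 (81.5% higher), the 2039 with an internal one 0.25 (51.3%), the 263 with a C-terminal one -0.04 (24%) and the 8785 with none -0.12 (10.0%). The values of Herpud1 (0.99) and Faf2 (1.36) therefore lay far above the median of genes without a segment, and those of Man1b1, Aup1 and Derl2 (1.98, 1.97 and 1.71) above the upper quartile of 1.14 for internal segments. Ubxn4 was placed in the N-terminal class by the 11-residue window alone, as were Erlec1 and Rhbdd1, and its 0.84 was just under the lower quartile of 0.85 of that class. With the stricter threshold of 1.8, Herpud2 moved to the class without a segment and the other 24 kept theirs. The internal class over all tested genes then held 1307 genes, with a median of 0.88, an upper quartile of 1.43 and 68.3% higher. Man1b1, Aup1 and Derl2 were above that quartile too, by less.

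**Figure D3:**
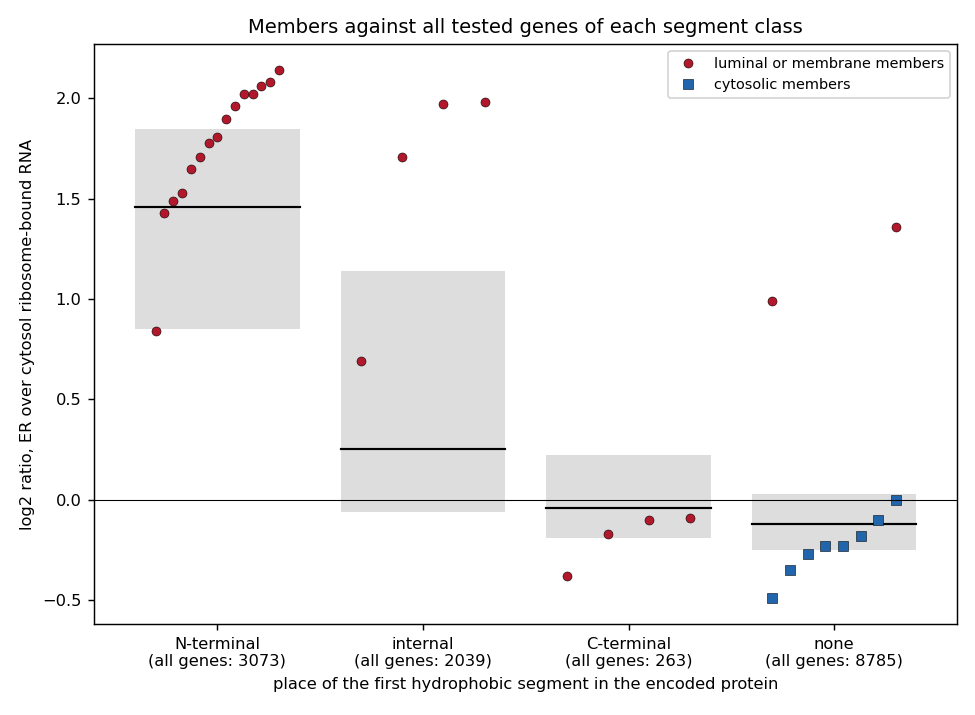
Log2 ratio of ER over cytosol ribosome-bound RNA by the place of the first hydrophobic segment in the encoded protein; the black line is the median and the grey box the quartiles of all tested genes in the class, and points are members. The 4 luminal or membrane members with a C-terminal segment lie between -0.38 and -0.09, while Herpud1 at 0.99 and Faf2 at 1.36 stand above the box of genes without a segment.

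Comparing purified ribosomes with whole-cell RNA of the same targeting gave the change on each side separately. These comparisons share libraries with the one above and with each other, so their values are set side by side and are not independent. In ER ribosome-bound over ER whole-cell RNA, 22 of the 25 luminal or membrane members were higher, 2 lower and 1 neither, with a median log2 ratio of 1.15 (all tested genes: 32.5% higher, 30.6% lower, median 0.01). Edem2 at 1.94, Sel1l at 1.77 and Erlec1 at 1.51 were the highest, and Syvn1 at 0.57 was the lowest of the 22 apart from Ube2j2, which was at 0.16 (SE 0.043, edgeR adjusted p = 0.00084). Rnf185 at -0.16 (SE 0.056, edgeR adjusted p = 0.012) and Ube2j1 at -0.21 (SE 0.065, edgeR adjusted p = 0.0043) were lower. Of the cytosolic members, 5 were lower, Ubqln2 was higher at 0.10 (SE 0.045, edgeR adjusted p = 0.043), and Vcp at -0.04 and Faf1 at 0.02 passed in neither direction. Under the cytosolic scaling the median of all genes moved from 0.01 to 0.22 and the split from 5267 higher and 4969 lower to 7771 and 2541. Rnf5 was then higher at 0.29 (edgeR adjusted p = 6e-05), Faf1 at 0.23 (2.8e-07), Vcp at 0.17 (1.8e-05) and Ubqln1 at 0.12 (0.0014). Rnf185, Ube2j1, Ube2g2 and Ngly1 were no longer called lower (0.05, 0.00, 0.00 and -0.17).

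Several of the small calls against ER whole-cell RNA depended on 1 library. Rnf185 was not called without replicate 1 (-0.14) or 3 (-0.13) of ER ribosome-bound RNA or replicate 2 of ER whole-cell RNA (-0.13), and Ube2j1 was not called without ER whole-cell replicate 2 (-0.15), so that the number of lower luminal or membrane members ran from 0 to 2. Ubqln1, lower at -0.09 (SE 0.034, edgeR adjusted p = 0.022), was at -0.07 and not called without replicate 3 of ER ribosome-bound RNA or replicate 2 of ER whole-cell RNA. Ubqln2 was not called without ER ribosome-bound replicate 1 or 2 (0.08 each), ER whole-cell replicate 1 (0.06) or cytosol ribosome-bound replicate 3 (0.10).

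On cytosol-targeted ribosomes most luminal and membrane members were lower than in whole-cell RNA. In cytosol ribosome-bound over cytosol whole-cell RNA, 19 of the 25 luminal or membrane members were lower, 4 higher and 2 neither, with a median log2 ratio of -0.45 (all tested genes: 20.9% higher, 33.1% lower, median -0.05). The split over all genes depended on the processing, with 3390 higher and 5368 lower as given. It was 4321 and 4476 under the cytosolic scaling (median 0.01). Without mitochondrially encoded genes it was 4284 and 4627 (median 0.005). Syvn1 at -0.88 (SE 0.070, edgeR adjusted p = 3.8e-16), Rnf139 at -0.84 (SE 0.066, edgeR adjusted p = 3.9e-16) and Man1b1 at -0.75 (SE 0.041, edgeR adjusted p = 2.3e-22) were the lowest, and only these 3 were lower by more than 1.5-fold under glmTreat. The 4 higher members were Ube2j2 at 0.25, Herpud2 at 0.24, Rnf185 at 0.21 and Rnf5 at 0.17. All but Herpud2 were in the class with a C-terminal segment. Ube2j1 at -0.02 and Ubxn4 at 0.05 passed in neither direction. Of the cytosolic members Ubqln2 at 0.27, Vcp at 0.22, Ubqln4 at 0.17 and Ubqln1 at 0.15 were higher, Ngly1 was lower at -0.24 (SE 0.098, edgeR adjusted p = 0.032), and the other 3 passed in neither direction.

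Members near the threshold in that comparison changed their call with the libraries used. The scaling of all genes moved as well. The ER libraries do not enter the comparison except through the shared fit and scaling. Yet without any 1 ER ribosome-bound library, or ER whole-cell replicate 2 or 3, the median of all genes was -0.001 instead of -0.054. How much of the changed calls went with that shift was not tested. Edem2 (-0.14, edgeR adjusted p = 0.0073) kept its call only when cytosol ribosome-bound replicate 1 or 3, cytosol whole-cell replicate 2 or ER whole-cell replicate 1 was the library left out, with -0.07 to -0.10 otherwise. Herpud1 (-0.20, 0.026) kept it only without replicate 1 of cytosol ribosome-bound or of ER whole-cell RNA (-0.06 to -0.20 otherwise), and Ngly1 (-0.24, 0.032) only without cytosol ribosome-bound replicate 3, cytosol whole-cell replicate 1 or ER whole-cell replicate 1 (-0.13 to -0.24 otherwise). All 3 also lost it with RLE factors, the cytosolic scaling and DESeq2. Rnf103 was not called without cytosol whole-cell replicate 1 (-0.29, edgeR adjusted p = 0.072). Faf1 (0.07) was called higher with the shared lysate as a block (0.07, edgeR adjusted p = 0.029). It was also called higher with DESeq2 or RLE factors (0.11 each) and under the cytosolic scaling (0.14). The same held without mitochondrially encoded genes, without a filter and with only the groups compared (0.13 each). Without 1 library Faf1 was called at 0.10 to 0.16, except without replicate 1 or 3 of cytosol ribosome-bound RNA or replicate 1 of ER whole-cell RNA. Ubxn4 (0.05) was called higher with RLE factors (0.09) and under the cytosolic scaling (0.12). It was also called without mitochondrially encoded genes and with only the groups compared (0.11 each). Ubxn4 was further called at 0.10 or 0.11 without cytosol whole-cell replicate 1 or 3, any 1 of the ER ribosome-bound libraries, or replicate 2 or 3 of ER whole-cell RNA.

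**Figure D4:**
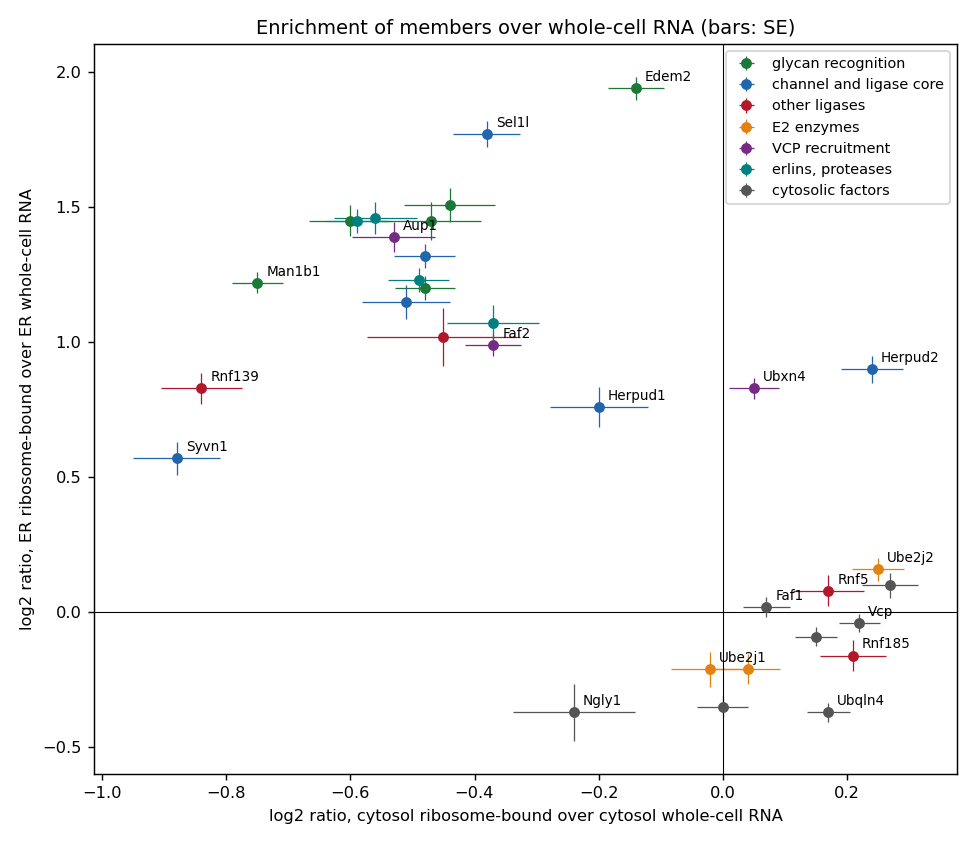
Each member's log2 ratio of cytosol ribosome-bound over cytosol whole-cell RNA (horizontal) and of ER ribosome-bound over ER whole-cell RNA (vertical), with SE bars and roles as colours. Most luminal and membrane members lie at the upper left; Herpud2 and Ubxn4 lie at the upper right, and Rnf5, Rnf185, Ube2j1, Ube2j2 and the cytosolic members lie within -0.37 and 0.27 on both axes.

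The difference between both enrichments was tested as an interaction. It was positive for 21 of the 25 luminal or membrane members, negative for 1 (Rnf185) and passed in neither direction for Rnf5, Ube2j1 and Ube2j2, with a median of 1.67 on the log2 scale (all tested genes: 24.8% positive, 18.7% negative). Sel1l was highest at 2.15 (SE 0.073, edgeR adjusted p = 3.1e-32), followed by Edem2 at 2.08 (SE 0.061, edgeR adjusted p = 6.4e-35). Herpud2 was the lowest of the 21 at 0.66 (SE 0.070, edgeR adjusted p = 5.7e-12). Of the 8 cytosolic members 6 were negative, led by Ubqln4 at -0.54 (SE 0.050, edgeR adjusted p = 1e-13) and Nploc4 at -0.35 (SE 0.058, edgeR adjusted p = 9.4e-07), and Faf1 at -0.05 and Ngly1 at -0.13 passed in neither direction. None was positive (0 also at an unadjusted p under 0.05 and by DESeq2). Under the cytosolic scaling the split over all genes went from 4024 positive and 3033 negative to 5037 and 995, and 3 cytosolic members stayed negative. Ube2j1 (-0.18) was called negative without cytosol ribosome-bound replicate 2, cytosol whole-cell replicate 1 or 2, replicate 1 or 2 of ER ribosome-bound RNA, or replicate 3 of ER whole-cell RNA, at -0.23 to -0.29. Ube2j2 (-0.09) was called at -0.16 without cytosol whole-cell replicate 1 or ER ribosome-bound replicate 2, and Faf1 at -0.14 without cytosol ribosome-bound replicate 2 and -0.15 without ER ribosome-bound replicate 2.

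In whole-cell RNA the members did not differ detectably between the targetings. No member was called in ER whole-cell over cytosol whole-cell RNA, none reached an unadjusted p under 0.05, and DESeq2 called none. Over all 16221 genes the background was 0.0% in each direction, with 638 at an unadjusted p under 0.05 and none by DESeq2. The log2 ratios of the luminal or membrane members ran from -0.02 to 0.08 and those of the cytosolic members from -0.14 to 0.07. Herpud1, Edem1, Sel1l, Syvn1, Derl1 and Derl2, which are known as targets of the unfolded protein response, were at 0.03 (SE 0.078), 0.03 (SE 0.047), -0.02 (SE 0.053), 0.08 (SE 0.065), 0.01 (SE 0.048) and 0.05 (SE 0.068). Of 15 other genes of that response none was called either, with a median of -0.01 and a range from -0.07 for Dnajb9 (SE 0.068) and Creld2 (SE 0.046) to 0.08 for Ddit3 (SE 0.147). The chaperone Hspa5 was at 0.02 (SE 0.036). A comparison with cells that express no ALIBi was not possible here, since each group carried it.

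**Figure D5:**
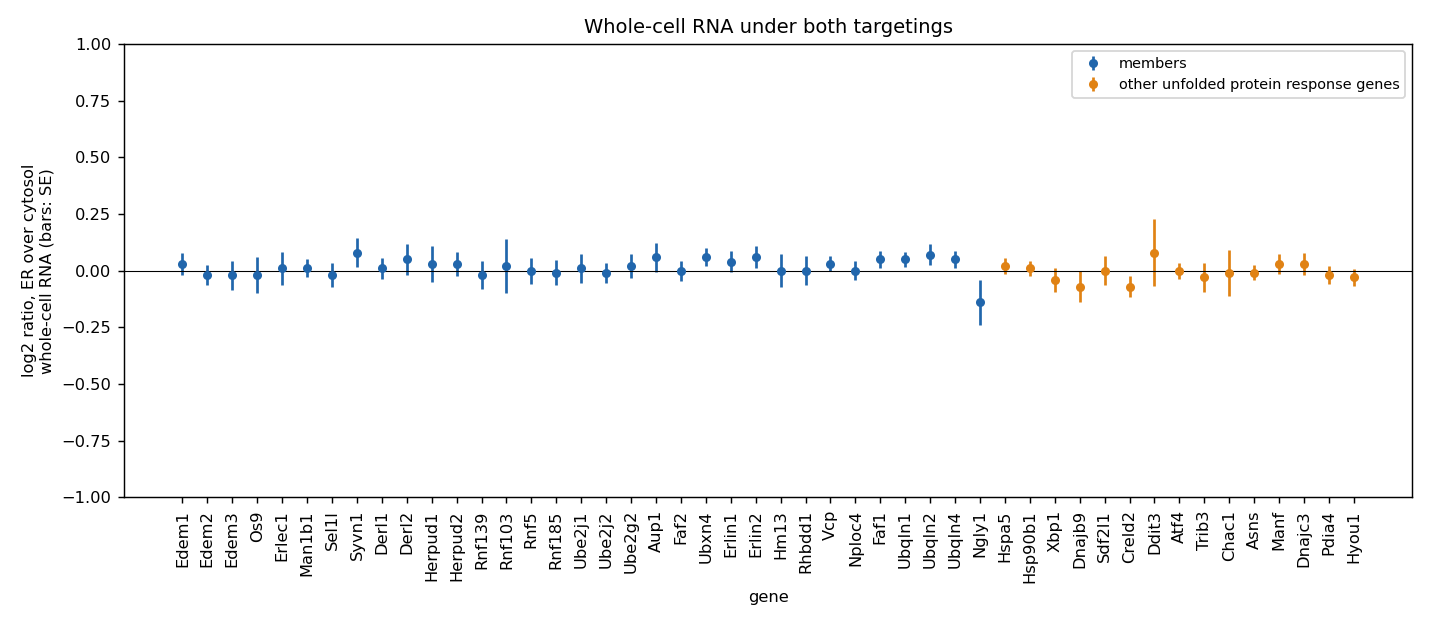
Log2 ratio of ER whole-cell over cytosol whole-cell RNA, with SE bars, for the 33 members (blue) and 15 unfolded protein response genes (orange). All points lie between -0.14 (Ngly1) and 0.08 on an axis that spans 1 log2 unit each way, and none was called.

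The members covered a wide range of abundance in whole-cell RNA, compared per kilobase of the principal transcript over the 6 whole-cell libraries. Vcp was highest, with a mean of 153 CPM per kb (range 149 to 156), followed by Ubqln4 at 85.9 (82.4 to 89.9), Ubqln1 at 74.7 (72.1 to 78.2), Ube2j2 at 50.5 (49.1 to 52.2) and Faf1 at 45.1 (42.9 to 47.5). The ranges of these 5 did not overlap. The most abundant members with N-terminal or internal segments were Man1b1 at 28.8 (27.2 to 30.5) and Edem2 at 23.6 (22.2 to 24.5). At the low end were Rnf103 at 1.8 (1.7 to 2.2), Ngly1 at 3.6 (2.9 to 4.1), Hm13 at 4.1 (3.8 to 4.6) and Edem3 at 4.5 (4.1 to 4.8), of which Ngly1, Hm13 and Edem3 each overlapped the next in this order. Sel1l and Syvn1, which work in a shared complex, were at 6.2 (5.8 to 6.4) and 6.9 (6.5 to 7.5) CPM per kb.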

How the data were processed

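Poly(A) RNA was measured in 12 libraries of E14Tg2a.4 mouse embryonic stem cells, grouped by the targeting and fraction in the labels. The authors deposited raw counts, 1 whole number for each Ensembl gene and library. The submitters' processing notes name STAR 2.7.9a, HTSeq 0.11.2, DESeq2 and the build GRCm39. Which annotation release and strand setting were used, and how multimapped reads were treated, is not given in the sources used here, so counts of genes that overlap another gene are uncertain. The 5 class totals for reads outside genes, 8.75% to 12.5% of reads per library, were left out.

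Symbols, transcripts and translated proteins came from GENCODE M21, built on GRCm38, which matched 52083 of 55416 identifiers (the rest held 0.41% of counts); as the build differs, no coordinates are given. Counts were filtered with filterByExpr (16221 genes kept) and scaled with TMM factors. CPM of members are on that scale and CPM of marker lists on raw totals. A single edgeR 4.0.16 model (R 4.3.3) with the 4 group means was fitted to all libraries, and 5 comparisons were tested, 2-sided, with the quasi-likelihood test; p-values were adjusted by Benjamini-Hochberg over all tested genes and called at 0.05. Each SE was derived from the F statistic, as the size of the log2 ratio divided by its root. The procedure was tested on simulated data. Replicates differed by more than counting noise (chi-square per gene 2.11 to 9.12), and depth and replicate number limit the precision; errors do not cover amplification by PCR.

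The members and all lists were chosen with earlier results of these data known. Values in every library were printed for the members with the highest and lowest ER over cytosol ratio in each role, those called against the median of their class and Vcp; other ERAD genes were named as the 3 highest and 3 lowest called, and unfolded protein response genes if called, with Dnajb9, Creld2, Ddit3 and Hspa5 named after their values were seen. The alternatives were RLE factors, cytosolic scaling, no mitochondrially encoded genes, 2 other filters, DESeq2 1.42.0, only the groups compared, a replicate block, a lysate block (added after seeing the data), glmTreat at 1.5-fold, a cytosolic class without Faf1 and each library left out in turn.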

Additional observations from a re-analysis of the deposited data

Results flagged for a closer look

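For 28 of the 33 members the enrichment of ribosome-bound over whole-cell RNA differed between ER and cytosol targeting by the test of that difference itself (edgeR's interaction contrast). Among all 16221 tested genes 24.8% were positive and 18.7% negative by the same test. Values are ER enrichment minus cytosol enrichment on the log2 scale. Among the glycan readers the difference was 2.08 for Edem2, 2.04 for Edem3, 1.97 for Man1b1, 1.95 for Erlec1, 1.92 for Os9 and 1.68 for Edem1. In the channel core it was 2.15 for Sel1l, 1.8 for Derl1, 1.66 for Derl2, 1.45 for Syvn1, 0.96 for Herpud1 and 0.66 for Herpud2. The ligases Rnf139 and Rnf103 were at 1.67 and 1.47, and Rnf185 was at -0.37. Among the recruiters of Vcp and E2 enzymes Aup1 was at 1.92, Faf2 at 1.35 and Ubxn4 at 0.77. Erlin1 was at 2.04, Rhbdd1 at 2.02, Erlin2 at 1.72 and Hm13 at 1.44. The cytosolic members that differed were Ubqln4 at -0.54, Nploc4 at -0.35, Vcp at -0.26, Ube2g2 at -0.24, Ubqln1 at -0.23 and Ubqln2 at -0.17.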

How the results depend on the processing

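The 21 higher luminal or membrane members in ER over cytosol ribosome-bound RNA and in the difference of enrichments, the 22 in ER ribosome-bound over whole-cell RNA and the 32 further membrane or luminal ERAD genes stayed within 1.5 times under all alternatives, and no member was called in whole-cell RNA under any. Within these counts, glmTreat no longer called Syvn1 (0.57) and Ube2j2 (0.16) against ER whole-cell RNA or Herpud2 (0.66) in the difference of enrichments. Calls of small differences moved. In ER over cytosol ribosome-bound RNA, lower luminal or membrane members went from 3 to 1 under cytosolic scaling and 0 with glmTreat (2 to 4 without 1 library), lower cytosolic members from 7 to 3 and 0 (5 to 8), higher cytosolic members from 0 to 1 under cytosolic scaling, and further cytosolic ERAD genes from 2 higher to 5 and 1 and from 12 lower to 0 with glmTreat (11 to 15). Against ER whole-cell RNA, lower luminal or membrane members went from 2 to 0 under both (0 to 2), lower cytosolic members from 5 to 2 and 0 (4 to 5), and higher cytosolic members from 1 to 4 under cytosolic scaling and 0 without a filter, with DESeq2, with only the groups compared and with glmTreat (0 to 1). In cytosol ribosome-bound over whole-cell RNA, glmTreat left 3 of 19 lower and 0 of 4 higher luminal or membrane members (16 to 19 and 4 to 5 without 1 library) and 0 of 4 higher cytosolic members (4 to 5), and the 1 lower cytosolic member, Ngly1, was lost under 7 settings, leaving 0 (0 to 1). In the difference of enrichments, negative luminal or membrane members went from 1 to 2 with RLE factors, without mitochondrially encoded genes and without a filter, and to 0 with glmTreat (1 to 3), and negative cytosolic members from 6 to 3 under cytosolic scaling and 0 with glmTreat (6 to 7). Cytosolic scaling turned the sign of Rnf185 (0.05), Ube2j1 (0.00), Ube2g2 (0.00), Vcp (0.17) and Ubqln1 (0.12) against ER whole-cell RNA and of Ube2j2 (0.03), Faf1 (0.13) and Ubqln2 (0.03) between the ribosome-bound pools; the cause was not tested. Faf1 was called in neither direction in any comparison as given, so leaving it out of the cytosolic class could not change those counts. Without single libraries the median log2 ratio of all genes between the ribosome-bound pools fell as low as -0.06. Same-numbered libraries did not deviate together (correlations of -0.079 to 0.06 over 18 pairs), so the values give no sign of pairing by number, and with the replicate block the class counts between the ribosome-bound pools were 21 higher and 3 lower luminal or membrane and 7 lower cytosolic members. Ribosome-bound and whole-cell RNA came from the same lysates, and a block on the lysate, taking the same number within a targeting as the same lysate, was added after seeing the data. It gave 22 higher and 2 lower luminal or membrane and 1 higher and 5 lower cytosolic members for ER, 4 and 19 and 5 and 1 for cytosol targeting, and 21 and 1 and 0 and 6 for the difference of enrichments; Faf1 for cytosol targeting was the only member whose call changed. Of the single-member values between the ribosome-bound pools, 657 of 693 kept direction and call.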
